A study of Mus musculus with 10 samples.

Results

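The 9 genes described here encode interferon receptor chains (Ifnar1, Ifnar2, Ifngr1, Ifngr2 and Il10rb), the signal transducers Stat2 and Irf9, and the interferon-induced proteins Ifit1 and Ifi27. They were taken by symbol from the platform annotation of the arrays, and all 9 were found, each with 1 transcript cluster, among 19938 genes with a single symbol. RNA came from the whole hippocampus, both sides together, of male mice aged 16 weeks, 5 of them Tg(Dyrk1a) and 5 their wild-type littermates. The Tg(Dyrk1a) mice carry an extra Dyrk1a gene on a bacterial artificial chromosome, next to the normal gene pair that both groups have, and the labels give the background of both groups as C57BL/6N, whereas the study's methods name C57BL/6J for this line. An Affymetrix whole-transcript array was run for each mouse, and by the labels the 5 mice of a group are biological replicates. The question was how the interferon system of the hippocampus stands when Dyrk1a is in excess and the receptor genes are not.

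Interferons are secreted cytokines that put cells into an antiviral state. Type I interferons bind IFNAR1 and IFNAR2, interferon gamma binds IFNGR1 and IFNGR2, and IL-10RB is a shared chain that serves the receptors of IL-10, IL-22 and the lambda interferons. Type I signalling activates STAT2, which acts with IRF9 at a DNA element upstream of interferon-stimulated genes, and in the brain microglia, endothelial cells, astrocytes and neurons can all respond. In the mouse 4 of the 5 receptor genes lie side by side on chromosome 16, in the region that corresponds to human chromosome 21, as Dyrk1a does, so mice that duplicate the region carry extra copies of both, whereas the Dyrk1a transgene leaves the receptors at their normal copy number.

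None of the 9 genes passed the threshold between the genotypes (limma adjusted p under 0.05, Benjamini-Hochberg over 23410 annotated transcript clusters). The largest differences were those of the interferon-induced genes Ifit1 and Ifi27, at 0.20 ± 0.07 and 0.17 ± 0.08 on the log2 scale (SE, n = 5 each), and the receptor chains ranged from 0.0019 for Ifnar1 to 0.15 for Il10rb. All 9 differences were positive on the deposited values, although Ifnar1 turned negative under quantile normalization and under median centring and Stat2 under quantile normalization. Over all 19938 genes, 51.7% of the differences were positive. The median of the 9 was 0.099, beside 0.0020 over all genes.

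Dyrk1a rose in Tg(Dyrk1a). The arrays hold 2 transcript clusters for it, 10437134 and 10437136. The values here are those of 10437136, the one with the higher mean. This cluster read 11.65, 11.62, 11.67, 11.65 and 11.68 in Tg(Dyrk1a) replicates 1 to 5. In wild type replicates 1 to 5 it read 11.28, 11.15, 11.14, 11.19 and 11.15. The groups did not overlap, and the difference was 0.47 ± 0.03 (SE), or 1.38-fold (limma adjusted p = 0.000138). Array medians lay between 6.57 and 6.66, and any pair of arrays correlated at 0.994 to 0.998 across transcript clusters. Of 23410 transcript clusters, 2 passed limma's adjusted threshold, which is 0.00854%, and 189 (0.807%) had groups that did not overlap. Only 1 of the 2 was higher in Tg(Dyrk1a), and it was 10437136, so 10437134 did not pass as higher. The neuronal marker Snap25 was bright on every array, at 13.42 ± 0.04 in Tg(Dyrk1a) and 13.44 ± 0.03 in wild type (SD, n = 5 each). The choroid plexus score, which is the mean of that tissue's markers as deviations from their means over the 10 arrays, exceeded 0.5 on 3 arrays, those of Tg(Dyrk1a) replicate 2, Tg(Dyrk1a) replicate 4 and wild type replicate 5 (the choroid-rich arrays).

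Ifnar1 and Ifnar2 encode the chains of the type I interferon receptor. Ifnar1 (transcript cluster 10436849) read 8.77, 8.80, 8.72, 8.66 and 8.81 in Tg(Dyrk1a) and 8.69, 8.67, 8.76, 8.84 and 8.78 in wild type, in the order of the replicate numbers, as for every gene here. The genotypes overlapped over almost the whole range, with 3 of 5 Tg(Dyrk1a) arrays above the wild-type mean. The means were 8.75 ± 0.06 in Tg(Dyrk1a) and 8.75 ± 0.07 in wild type (SD, n = 5 each). The difference was 0.0019 ± 0.04 (SE), with a 95% interval of -0.09 to 0.09, and the exact permutation p was 0.96. Its sign was negative in 10 of the 22 alternatives, some of which leave every difference as it was. In RNA from whole tissue, a change in the number of cells that express a receptor and a change in the RNA of each cell cannot be told apart.

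Ifnar2 (10436830), whose product binds type I interferons with high affinity, read 9.40, 9.46, 9.30, 9.33 and 9.38 in Tg(Dyrk1a) and 9.04, 9.31, 9.34, 9.36 and 9.32 in wild type. All 5 Tg(Dyrk1a) arrays lay above the wild-type mean, and 3 lay above the highest wild-type array. Wild type replicate 1 stood apart at the bottom, and the other 4 wild-type arrays lay between 9.31 and 9.36. With all arrays the difference was 0.10 ± 0.06 (SE; 95% interval -0.03 to 0.23; exact permutation p = 0.135; limma adjusted p = 0.947). Without wild type replicate 1 the difference was 0.04, the lowest value among the alternatives run for this gene.

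Il10rb (10436841), the shared receptor chain, had the widest spread of the 9 genes over the 10 arrays, 0.60 from the lowest to the highest. It read 7.88, 8.23, 7.70, 7.86 and 7.82 in Tg(Dyrk1a) and 7.69, 7.74, 7.63, 7.84 and 7.85 in wild type. Tg(Dyrk1a) replicate 2 was the highest array by far, and the other 4 lay between 7.70 and 7.88, within or just above the wild-type range of 7.63 to 7.85. The difference was 0.15 ± 0.08 (SE; 95% interval -0.03 to 0.33; exact permutation p = 0.159; limma adjusted p = 0.947). It was 0.06 without Tg(Dyrk1a) replicate 2 and 0.07 without the 3 choroid-rich arrays.

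Ifngr1 and Ifngr2 encode the ligand-binding chain and the accessory chain of the interferon gamma receptor. Ifngr1 (10361897), which lies on chromosome 10, read 8.40, 8.66, 8.41, 8.32 and 8.56 in Tg(Dyrk1a) and 8.25, 8.44, 8.47, 8.45 and 8.55 in wild type. Only replicates 2 and 5 of Tg(Dyrk1a) were above the wild-type mean, and the groups overlapped. Its difference was 0.04 ± 0.07 (SE; 95% interval -0.11 to 0.19; exact permutation p = 0.611), and it turned negative, at -0.0061, without Tg(Dyrk1a) replicate 2 and, at -0.0029, without wild type replicate 1.

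Ifngr2 (10436865) read 11.49, 11.28, 11.31, 11.25 and 11.32 in Tg(Dyrk1a) and 11.23, 11.29, 11.17, 11.35 and 11.27 in wild type. Tg(Dyrk1a) replicate 1 stood apart at the top, and the other 4 arrays of its group lay inside the wild-type range. The difference was 0.07 ± 0.05 (SE; 95% interval -0.04 to 0.17; exact permutation p = 0.262; limma adjusted p = 0.952), and 0.03 without Tg(Dyrk1a) replicate 1.

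**Figure D1:**
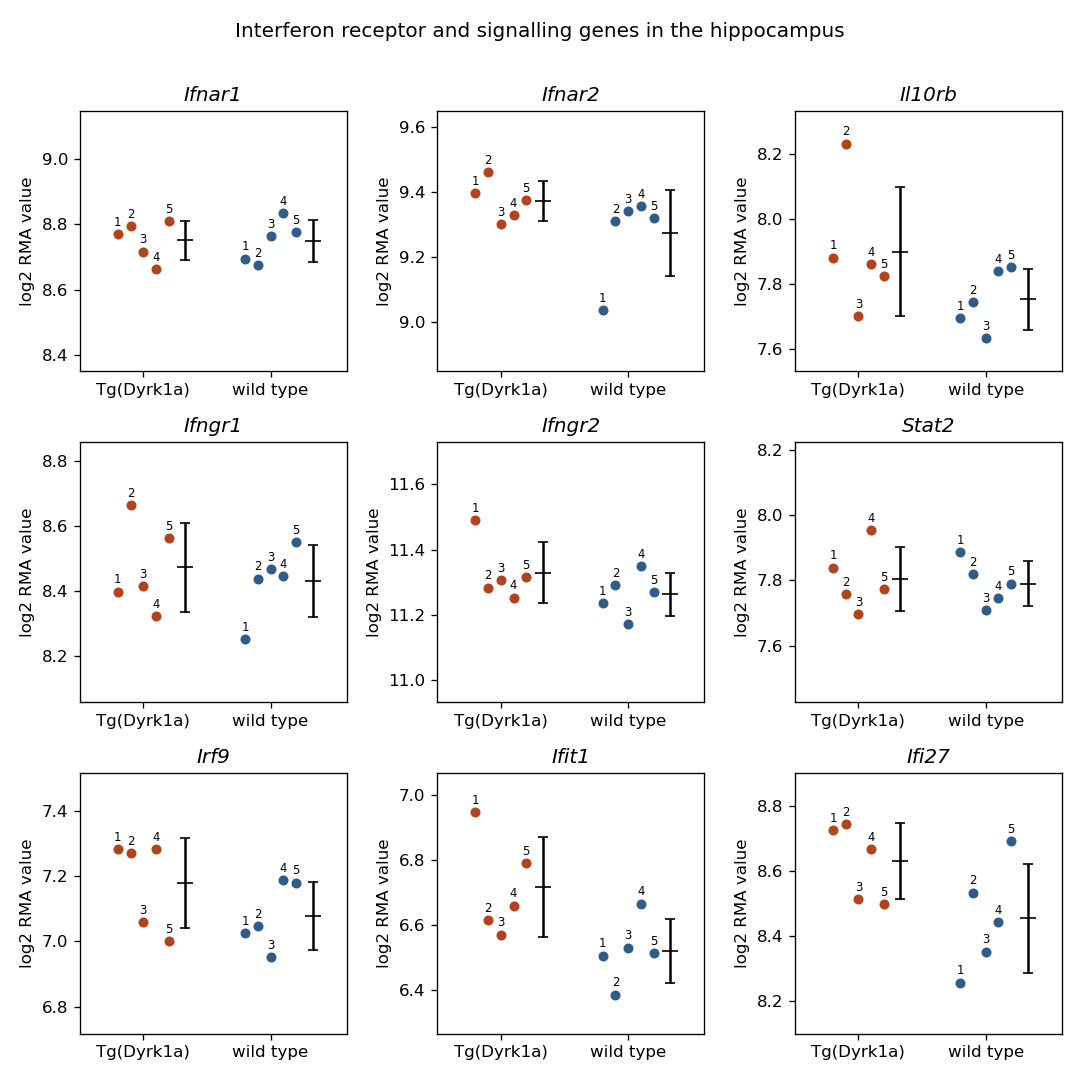
Log2 RMA values (vertical axes, each 0.8 units high) of the 9 interferon genes in the hippocampus of 5 Tg(Dyrk1a) mice (red) and 5 wild-type mice (blue), 1 numbered point per mouse, with black bars for the mean and SD of each group. The genotypes overlap in every panel. Tg(Dyrk1a) replicate 1 for Ifngr2 (11.49) and wild type replicate 1 for Ifnar2 (9.04) stand apart from their groups, and Tg(Dyrk1a) replicate 2 is the highest array for Il10rb (8.23).

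The 4 clustered receptor genes, in the order Ifnar2, Il10rb, Ifnar1 and Ifngr2, fill 191.2 kb of chromosome 16 (GRCm38.p6, chr16:91372783-91564007), with no other protein-coding gene between them, and Dyrk1a starts 3.006 Mb beyond the end of Ifngr2. Their differences were 0.10, 0.15, 0.0019 and 0.07, with intervals that overlapped each other, and none had an interval reaching the Dyrk1a difference of 0.47. The upper bounds of all 9 genes, the highest of which was 0.35 for Ifit1, stayed below 0.40, the lower bound for Dyrk1a. On the proximal side, the oligodendrocyte factor gene Olig2 stood at 8.81 ± 0.13 in Tg(Dyrk1a) and 8.93 ± 0.06 in wild type (SD, n = 5 each), a difference of -0.12 ± 0.06 (SE), with a limma adjusted p of 0.947. Olig1, nearer to the receptor genes, differed by 0.04 ± 0.05, and 4932438H23Rik, farther from them, by -0.05 ± 0.03 (SE). On the distal side, the 7 measured protein-coding genes from Tmem50b, a membrane protein gene, to Itsn1, which encodes a scaffold of endocytosis, both named as the ends of the stretch, had differences between -0.03 and 0.05. Of 19 listed genes of this part of chromosome 16, Dyrk1a included, 10 differences were positive and 9 negative, with a median of 0.0029, and Dyrk1a was the 1 gene that passed.

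**Figure D2:**
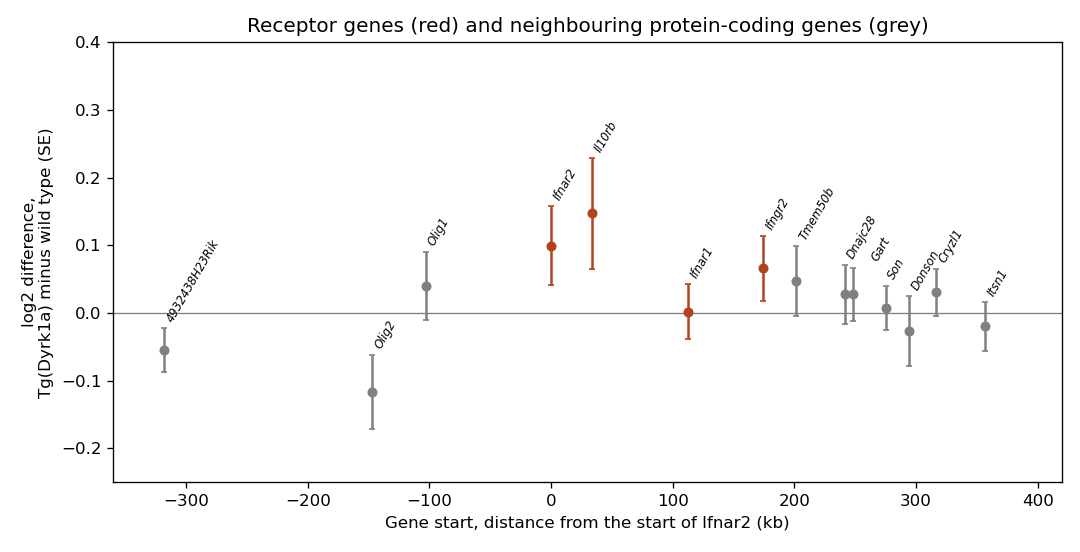
Log2 difference between Tg(Dyrk1a) and wild type (vertical axis, points, with bars of 1 SE) of the receptor genes (red) and the measured protein-coding genes beside them (grey), by distance of the gene start from that of Ifnar2 in kb (horizontal axis). The receptor genes lie between 0.0019 and 0.15 and the neighbours between -0.12 and 0.05.

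STAT2 and IRF9 carry the type I signal to the nucleus. Stat2 (10367224, chromosome 10) read 7.84, 7.76, 7.70, 7.95 and 7.77 in Tg(Dyrk1a) and 7.89, 7.82, 7.71, 7.75 and 7.79 in wild type. The genotypes overlapped, and 2 of 5 Tg(Dyrk1a) arrays lay above the wild-type mean. The difference was 0.01 ± 0.05 (SE; 95% interval -0.09 to 0.12; exact permutation p = 0.786), with a negative sign under quantile normalization, with array weights, when the choroid-rich arrays were left out, and when either replicate 4 of Tg(Dyrk1a) or replicate 3 of wild type was.

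Irf9 (10415319, chromosome 14), the DNA-binding partner of STAT2, read 7.28, 7.27, 7.06, 7.28 and 7.00 in Tg(Dyrk1a) and 7.02, 7.05, 6.95, 7.19 and 7.18 in wild type. Tg(Dyrk1a) replicates 1, 2 and 4 were above every wild-type array, whereas replicates 3 and 5 lay among the lower wild-type arrays. The difference was 0.10 ± 0.07 (SE; 95% interval -0.04 to 0.25; exact permutation p = 0.214; limma adjusted p = 0.948). It was 0.03 with array weights, 0.06 without the choroid-rich arrays and 0.05 with the endothelial and mural marker score as a covariate.

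Ifit1 and Ifi27 are targets of the pathway. IFIT1 is a cytosolic protein that binds foreign RNA and blocks its translation. Ifit1 (10462623, chromosome 19) read 6.95, 6.62, 6.57, 6.66 and 6.79 in Tg(Dyrk1a) and 6.51, 6.39, 6.53, 6.67 and 6.51 in wild type. Every Tg(Dyrk1a) array was above the wild-type mean and above 4 of the 5 wild-type arrays, and only wild type replicate 4 reached into the Tg(Dyrk1a) range. The means were 6.72 ± 0.15 in Tg(Dyrk1a) and 6.52 ± 0.10 in wild type (SD, n = 5 each), which is 1.15-fold with a 95% interval of 1.03 to 1.27. The wild-type mean lay below the array medians of 6.57 to 6.66 and the Tg(Dyrk1a) mean just above them. Whether Ifit1 was expressed was not tested. The exact permutation p was 0.0397 and limma's p was 0.0153 before adjustment and 0.947 after it. Ifit1 belongs to a family of similar genes, so the probes may also read its relatives.

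Ifi27 (10397975, chromosome 12), which encodes a small membrane protein induced by interferon alpha, read 8.73, 8.74, 8.51, 8.67 and 8.50 in Tg(Dyrk1a) and 8.26, 8.53, 8.35, 8.44 and 8.69 in wild type. Every Tg(Dyrk1a) array was above the wild-type mean, and wild type replicates 2 and 5 reached into the Tg(Dyrk1a) range. The means were 8.63 ± 0.12 in Tg(Dyrk1a) and 8.46 ± 0.17 in wild type (SD, n = 5 each), 1.13-fold with a 95% interval of 1.00 to 1.27. The exact permutation p was 0.0952, and limma's p was 0.0425 before adjustment and 0.947 after it. No p of a single gene here was corrected for the 9 genes looked at, other than limma's adjusted values.

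Counted by rule, 0 of 9 genes passed limma's adjusted threshold and 0 of 9 had groups that did not overlap. Ifit1 and Ifi27, both higher in Tg(Dyrk1a), were the 2 of 9 with an unadjusted limma p under 0.05, against 4.93% of all transcript clusters in either direction, 2.99% with the higher and 1.94% with the lower value in Tg(Dyrk1a). FCROS, the method the study used, ranks the fold changes of every pair of arrays, and an f-value in the outer 0.025 on either side counted as called. It also called Ifit1 and Ifi27 and no other of the 9 genes, where it called 4.83% of all transcript clusters, 2.72% as higher and 2.11% as lower. FCROS gives no error rate over mice, and it was rewritten here from its description, so its calls may differ from the study's.

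**Figure D3:**
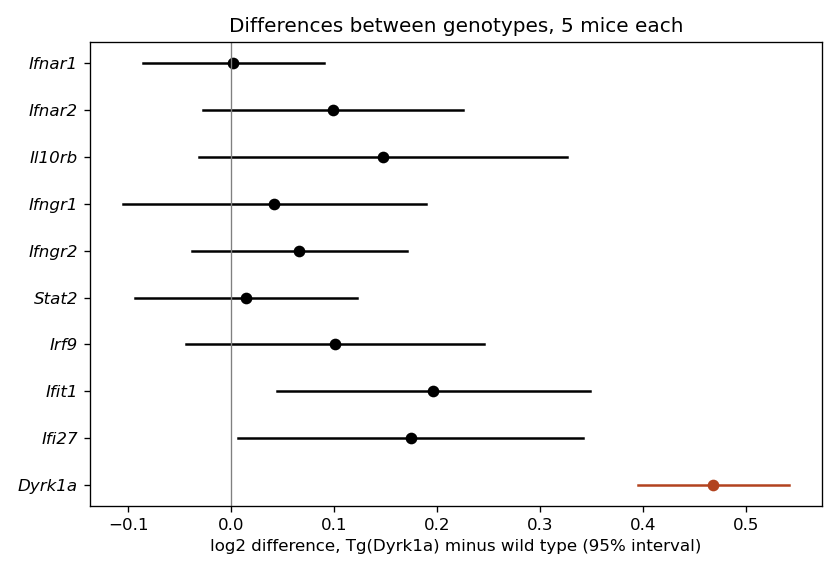
Log2 difference between Tg(Dyrk1a) and wild type (horizontal axis) with limma 95% intervals (lines) for the 9 interferon genes (black) and Dyrk1a (red), 5 mice in each group. The intervals of Ifit1 and Ifi27 lie above 0, those of the other 7 genes include it, and all 9 end below the interval of Dyrk1a.

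The upstream sequences of Ifit1 and Stat2 are shown because these were the only members of the 7 with a RefSeq promoter window (GRCm38.p6, 8 windows, each 250 bases before to 50 bases after a start) that held GAAA, any 2 bases and then GAAA, the core of the interferon-stimulated response element, at which STAT2 and IRF9 are known to act. The search covered both strands. The capitals mark the matches, which lie on the minus strand and so appear as the reverse complement.
Ifit1, chr19:34640639-34640888, plus strand: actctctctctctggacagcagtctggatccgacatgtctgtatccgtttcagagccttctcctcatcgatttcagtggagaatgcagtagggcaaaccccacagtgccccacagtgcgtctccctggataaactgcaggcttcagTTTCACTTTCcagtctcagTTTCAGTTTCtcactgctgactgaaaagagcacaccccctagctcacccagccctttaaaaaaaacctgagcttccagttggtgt
Stat2, chr10:128270248-128270497, plus strand: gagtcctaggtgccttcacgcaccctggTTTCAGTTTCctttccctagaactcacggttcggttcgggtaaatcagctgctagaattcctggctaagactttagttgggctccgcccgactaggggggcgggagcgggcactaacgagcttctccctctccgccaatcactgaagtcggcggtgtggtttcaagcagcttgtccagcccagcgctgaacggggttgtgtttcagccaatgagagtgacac
Ifit1 had 2 matches, with first bases 104 and 85 before the start, and Stat2 had 1, 222 before the start. Of all 32851 windows 3.44% held a match, as did 19 of 42 type I interferon-stimulated genes and 11 of 23 interferon-gamma-induced genes with a window. A match is a run of letters and not a measured binding site. The 607 measured genes with a match to this element, Ifit1 and Stat2 among them, had a median difference of 0.0047, beside 0.0020 over all genes. Their differences were positive in 54%, beside 51.7% of all genes. An unadjusted limma p under 0.05 was found for 4.61% (19 higher and 9 lower in Tg(Dyrk1a)). Over all transcript clusters this share was 4.93%, with 2.99% higher and 1.94% lower.

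Arrays differed in how many of the 9 genes they had above the gene's mean over the 10 arrays. In Tg(Dyrk1a), replicate 1 was above in 8 genes, replicates 2 and 4 in 6, replicate 5 in 5 and replicate 3 in 1. In wild type, replicate 4 was above in 6 genes, replicate 5 in 5, replicate 3 in 3 and replicates 1 and 2 in 1 each. So the spread within each genotype was wide, and Tg(Dyrk1a) replicate 2 held the highest value of the 10 arrays for 4 genes, while wild type replicates 1 and 3 held the lowest for 3 genes each.

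With the genotype means taken out, 31 of the 36 gene pairs correlated positively over the 10 arrays, with a median Pearson r of 0.281. The highest were Ifnar2 with Ifngr1 (0.755), Irf9 with Ifi27 (0.753), Ifngr2 with Ifit1 (0.683), Ifnar1 with Ifngr1 (0.666) and Il10rb with Irf9 (0.665). The lowest were those of Stat2 with Ifngr1 (-0.609), Ifnar1 (-0.590) and Ifnar2 (-0.472). These values describe 10 arrays that share tissue make-up and processing. The 36 pairs share 9 genes and so are not independent, and the share of positive pairs over all genes was not computed. Ifit1 and Ifi27, the genes with the largest differences, correlated at 0.025 once genotype was removed.

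Il10rb varied most, and the genes most like it by genotype-centred Pearson r over the 10 arrays were Pdpn (0.968), Gm5617 (0.965), Gbp7 (0.965), Mdfic (0.948) and Cerkl (0.947). They were picked as the highest r among all genes with a single symbol, so a high r was given by the choice. In the same ranking the other interferon genes ranged from rank 1067 (Irf9, r = 0.665) to rank 9630 (Ifit1, r = 0.004). Pdpn encodes the surface glycoprotein podoplanin and Gbp7 an interferon-induced GTPase. The differences of these 5 genes between the genotypes were 0.08, 0.07, 0.09, 0.12 and 0.15, and none passed (limma adjusted p of 0.947 to 0.957). Tg(Dyrk1a) replicate 2, the highest array for Il10rb, also had the highest choroid plexus score (1.18), the highest microglia score (0.13) and the highest score of meninges and fibroblast markers (0.24), and the part of these tissues in the Il10rb values was not tested.

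The rest of the pathway was read from lists of genes that are not among the 9. Of the interferon ligands, 15 of 19 were measured, 13 with a negative and 2 with a positive difference (median -0.05), and 0 passed. The 2 with the smallest p, Ifna13 at 4.21 ± 0.05 in Tg(Dyrk1a) and 4.31 ± 0.05 in wild type, and Ifna12 at 4.95 ± 0.08 in Tg(Dyrk1a) and 5.09 ± 0.10 in wild type (SD, n = 5 each), are type I interferons, and their limma adjusted p was 0.947. These were also the 2 ligands with an unadjusted limma p under 0.05, and FCROS called 3 ligands as lower. Over all transcript clusters, 1.94% had such a p with the lower value in Tg(Dyrk1a), and FCROS called 2.11% as lower. Both Ifna13 and Ifna12 read below the array medians of 6.57 to 6.66, and whether they were expressed was not tested. Interferon alpha genes are near-identical copies, so each of these transcript clusters may read several of them. Of the other receptor chains and ligands of the IL-10 family, 10 of 11 were measured, 8 with negative differences (median -0.02). Il22ra1, which encodes the chain that pairs with IL-10RB to bind IL-22, stood at -0.09 ± 0.05 (SE) and Il10 at -0.04 ± 0.03 (SE), and neither passed.

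Between receptor and nucleus, 21 of 24 JAK-STAT partners and inhibitors were measured, 11 with positive and 10 with negative differences, at a median of 0.0026. None passed and none had an unadjusted limma p under 0.05. The smallest p belonged to Ptpn6, a phosphatase that damps cytokine receptors (-0.07 ± 0.03, SE), and Stat6, the transducer of IL-4 (-0.06 ± 0.04, SE). The receptor-bound kinases Jak1, Tyk2 and Jak2, chosen for their role after the values were seen, stood at 0.03 ± 0.03, 0.07 ± 0.07 and -0.0088 ± 0.04 (SE). Of the IRF family and its binding proteins 10 of 11 were measured, 7 with negative differences, and Irf2bp2, a corepressor that binds IRF2, had the 1 unadjusted limma p under 0.05 (-0.08 ± 0.03, SE), with Irf5 next (-0.08 ± 0.04, SE). Of 20 nucleic acid sensors and adaptors 16 were measured, 10 with positive and 6 with negative differences, and the smallest p were those of Tlr3 and Tlr9, which sense double-stranded RNA and unmethylated DNA (0.07 ± 0.05 and -0.10 ± 0.07, SE). None of these passed.

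Of 55 type I interferon-stimulated genes other than Ifit1 and Ifi27, 50 were measured. None passed limma's threshold, 33 differences were positive and 17 negative, and their median was 0.035, with a range of -0.10 to 0.25. Sp100, a nuclear body protein, stood at 6.16 ± 0.09 in Tg(Dyrk1a) and 5.99 ± 0.06 in wild type (SD, n = 5 each), and Lgals9, a galectin, at 7.96 ± 0.10 in Tg(Dyrk1a) and 7.83 ± 0.02 in wild type. These were the 2 with an unadjusted limma p under 0.05, both higher in Tg(Dyrk1a), with limma adjusted p of 0.947. Both means of Sp100 lay below the array medians of 6.57 to 6.66, and whether it was expressed was not tested. Over all transcript clusters, 2.99% had such a p with the higher value in Tg(Dyrk1a) and 1.94% with the lower. FCROS called 8 of the 50 as higher and 0 as lower, where it called 2.72% of all transcript clusters as higher and 2.11% as lower. Of these, Lgals3bp (0.25 ± 0.14, SE), Ifitm3, an antiviral membrane protein (0.23 ± 0.13, SE), and Ifit3, a partner of IFIT1 (0.19 ± 0.11, SE), were chosen after their values were seen. Ifit2 and Ifit3b, other genes of the Ifit family chosen in the same way, stood at -0.02 ± 0.05 and -0.08 ± 0.04 (SE). Ifi27l2a and Ifi27l2b, relatives of Ifi27 also chosen in this way, stood at -0.06 ± 0.04 and -0.04 ± 0.03 (SE).

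The mean deviation of the 50 genes from their means over the 10 arrays was 0.076, 0.059, -0.027, -0.049 and 0.046 in Tg(Dyrk1a) replicates 1 to 5, and -0.044, -0.0008, -0.033, -0.031 and 0.0038 in wild type replicates 1 to 5. Tg(Dyrk1a) replicates 1, 2 and 5 were thus above all wild-type arrays, replicate 3 lay within the wild-type range and replicate 4 below it. Of 35 interferon-gamma-induced genes 26 were measured, 16 with positive and 10 with negative differences (median 0.026), and none passed or had an unadjusted limma p under 0.05. FCROS called 1 as higher and 1 as lower, where it called 2.72% of all transcript clusters as higher and 2.11% as lower. The smallest p were those of Psmb9, a subunit of the immunoproteasome (-0.06 ± 0.03, SE), and Psme1, a subunit of a proteasome activator (0.09 ± 0.05, SE). The study reports Ifnar2 and Il10rb as raised in each of its lines other than Tg(Dyrk1a), and describes the same for Ifit1. FCROS as rewritten here called Ifit1 as higher in Tg(Dyrk1a), and it did not call Ifnar2 or Il10rb. The lists were drawn up with earlier results of these arrays known, so these counts are no independent evidence of a direction.

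**Figure D4:**
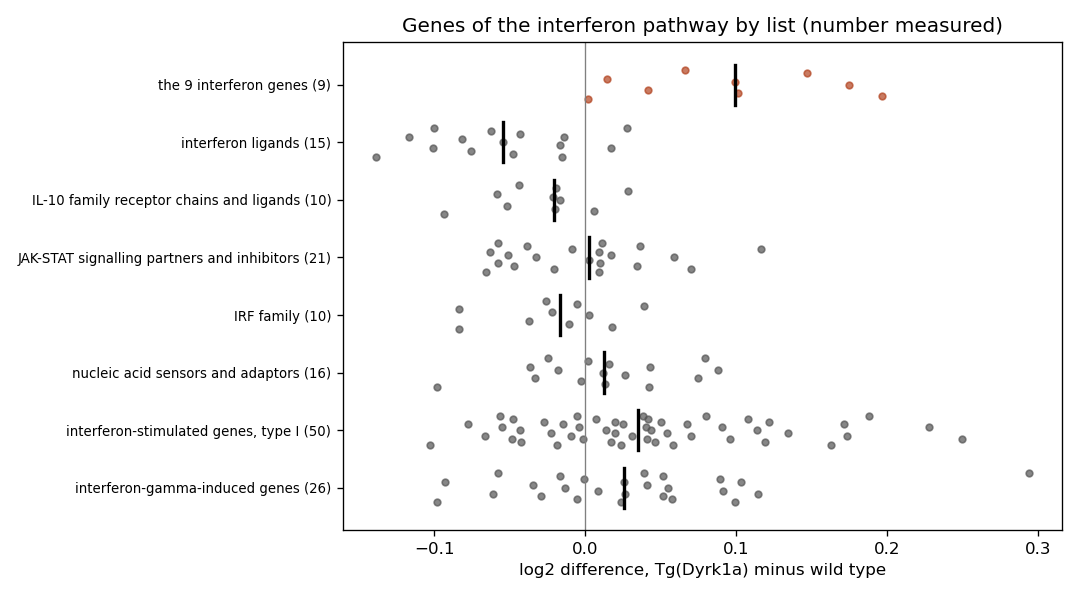
Log2 difference between Tg(Dyrk1a) and wild type (horizontal axis) of each measured gene (points) of the interferon pathway by list (rows, with the number of genes measured), with a black bar at each list's median. The median is 0.099 for the 9 interferon genes, 0.035 for the type I interferon-stimulated genes and -0.05 for the ligands.

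Most markers of vessels and meninges had positive differences. Of 17 measured endothelial and mural markers, 14 had positive differences and 6 had an unadjusted limma p under 0.05, all higher in Tg(Dyrk1a), a call that 2.99% of all transcript clusters had. FCROS called 7 as higher, where it called 2.72% of all transcript clusters as higher. The score of this list ranged from 0.0069 to 0.090 in Tg(Dyrk1a) and from -0.16 to 0.020 in wild type. The most abundant, Cldn5, a tight junction gene, stood at 10.32 ± 0.09 in Tg(Dyrk1a) and 10.19 ± 0.16 in wild type (SD, n = 5 each). Of 16 meninges and fibroblast markers 15 were positive, 6 had an unadjusted limma p under 0.05 with the higher value in Tg(Dyrk1a), and FCROS called 12 as higher. Their score ranged from -0.068 to 0.24 in Tg(Dyrk1a) and from -0.21 to 0.044 in wild type, with Ptgds, the most abundant, at 11.78 ± 0.08 in Tg(Dyrk1a) and 11.63 ± 0.14 in wild type. No marker of either list passed limma's adjusted threshold.

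Microglia markers overlapped more, with scores of -0.093 to 0.13 in Tg(Dyrk1a) and -0.10 to 0.099 in wild type, 10 of 13 positive, and C1qb, a complement gene, at 10.15 ± 0.14 in Tg(Dyrk1a) and 10.13 ± 0.11 in wild type (SD, n = 5 each). Choroid plexus scores ranged from -0.71 to 1.18 in Tg(Dyrk1a) and from -0.57 to 1.10 in wild type, with Ttr, which encodes transthyretin, at 10.56 ± 2.40 in Tg(Dyrk1a) and 11.03 ± 1.55 in wild type. Lymphocyte and neutrophil markers, 3 of 9 positive, ranged from -0.057 to 0.074 in Tg(Dyrk1a) and from -0.065 to 0.052 in wild type, and astrocyte and neuron scores stayed between -0.042 and 0.053 in Tg(Dyrk1a) and between -0.054 and 0.031 in wild type.

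With the endothelial and mural score as a covariate, a fit chosen after seeing the data, Ifit1 differed by 0.17 ± 0.10 (SE, limma adjusted p = 0.986) and Ifi27 by 0.09 ± 0.11 (SE, limma adjusted p = 0.997), and neither kept an unadjusted limma p under 0.05. With the choroid plexus and meninges scores Ifit1 differed by 0.22 ± 0.10 and Ifi27 by 0.23 ± 0.08 (SE), and with the microglia score Ifit1 differed by 0.20 ± 0.07 and Ifi27 by 0.14 ± 0.07 (SE). Of these, Ifit1 with the choroid plexus and meninges scores and Ifi27 with the microglia score also had an unadjusted limma p over 0.05. With the 3 choroid-rich arrays left out, Ifit1 differed by 0.25 ± 0.09 and Ifi27 by 0.18 ± 0.07 (SE). The ranges of the vessel score overlapped little between the genotypes, and its part in the differences of Ifit1 and Ifi27 was not tested.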

How the data were processed

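Affymetrix Mouse Gene 1.0 ST arrays measured 5 Tg(Dyrk1a) and 5 wild-type hippocampi. The deposited values are log2 intensities that the authors had made with robust multi-array average (RMA), that is, background correction, quantile normalization and probe summary. The submitters' processing notes name RMA, limma and mm10. The set of arrays that shared this normalization is not given in the sources used here. RMA compresses differences of dim transcript clusters, and no detection calls were used here.

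Of 35556 rows, 23410 had a platform symbol (21789 a single one, 1621 several) and 12146 had none. A gene was represented by its transcript cluster with the highest mean, and no symbol needed updating against RefSeq GRCm38.p6. The comparison used lmFit and eBayes of limma 3.58.1 under R 4.3.3, with no covariate and an adjusted p threshold of 0.05, and single genes also by a two-sided exact permutation test over 252 assignments, with 0.00794 as the smallest p. FCROS was rewritten from its description (25% of ranks trimmed at each end). Differences are Tg(Dyrk1a) minus wild type. Precision is limited by the number of arrays, 10.

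The 9 genes and the lists were chosen with earlier results of these data known. Besides the 9 and Dyrk1a, the naming rule took the genes past the threshold and the 2 smallest p of each pathway list, the 5 genes most like Il10rb, and the most abundant marker of marker lists. Jak1, Tyk2, Jak2, Lgals3bp, Ifitm3, Ifit3, Ifit2, Ifit3b, Ifi27l2a and Ifi27l2b were named outside this rule, after their values were seen. Tmem50b and Itsn1 were named as the ends of a stretch of neighbours, and Olig1 and 4932438H23Rik as the other measured protein-coding genes on the proximal side. The alternatives are given in the closing section. Scripts were tested on simulated data.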

Additional observations from a re-analysis of the deposited data

Results flagged for a closer look

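A single array stood apart from the other 4 of its group for 2 of the 9 genes. Ifnar2 in wild type replicate 1 was at 9.0372, with the nearest array of the group at 9.3100 and the highest at 9.3560, so the gap was 0.856 of the group's range, over the Dixon limit of 0.71 for 5 samples. Ifngr2 in Tg(Dyrk1a) replicate 1 was at 11.4900, with the nearest array at 11.3154 and the lowest at 11.2517, a gap of 0.733 of the range. Of 18 groups of arrays tested (9 genes in each genotype) 2 were past the limit, and chance gives about 1 in 20.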

How the results depend on the processing

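The count of interferon genes past limma's adjusted threshold was 0 in every limma alternative and 2 with FCROS, and the members' limma adjusted p ran from 0.714 to 1. Over all transcript clusters 2 passed, as under quantile normalization, median centring and without the dimmest 30%, against 1 with all rows tested, 1 with a variance trend and robust estimation, 1 with the replicate block, 5 with array weights, 1131 with FCROS, and 1 to 2 with each array left out. It was 1 with the 3 choroid-rich arrays (choroid plexus score over 0.5) left out and 1 with each marker score as covariate, alternatives chosen after seeing the data. Arrays with the same replicate number correlated at -0.285 to 0.277 with genotype means taken out. These values cannot settle whether the numbers pair mice. The replicate block called 0 of the 9 genes.

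Signs turned for 4 genes. Ifnar1 was at -0.018 under quantile normalization, -0.0026 under median centring, -0.061 with choroid plexus and meninges scores, -0.0070 with the microglia score and -0.041 with the endothelial and mural score, and -0.017 to 0.024 with each array left out. Ifngr1 was at -0.038 and -0.020 with the choroid plexus and meninges scores and with the endothelial and mural score, and -0.0061 to 0.079 with each array left out. Ifngr2 was at -0.019 with the endothelial and mural score. Stat2 was at -0.0018 under quantile normalization, -0.0097 with array weights, -0.020 without the choroid-rich arrays, and -0.023 to 0.041 with each array left out. The causes were not tested. Ifnar2 (0.040 to 0.12), Il10rb (0.064 to 0.20), Irf9 (0.029 to 0.15), Ifit1 (0.14 to 0.25) and Ifi27 (0.092 to 0.23) stayed positive in all 22 alternatives. Without Tg(Dyrk1a) replicate 1 Ifit1 was at 0.14. An unadjusted limma p under 0.05 was kept in 20 alternatives for Ifit1 and in 10 for Ifi27. Each gene had 1 transcript cluster, so averaging transcript clusters changed nothing. Leaving out the dimmest transcript clusters, testing all rows, the variance trend with robust estimation and the replicate block also left every difference as it was. These alternatives are counted among the 22 but could not turn a sign.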
